A study of Mus musculus with 4 samples.

Results

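The neural intermediate filament genes are Gfap, Vim, Nes, Synm, Nefl, Nefm, Nefh, Ina and Prph, 9 of the 23874 genes in the deposited count table, found there by symbol. They were selected on a measured value, the lower Gfap count of electrically stimulated tissue, which was known when the glial, progenitor and neuronal members of its family were listed. Their values in the comparison of stimulated with unstimulated tissue are therefore given as a description, with no test. RNA was sequenced from engineered neural tissue (ENT) of the mouse, in which neurospheres labelled as stem cells were set in Matrigel, a basement membrane gel, under N2 and B27 medium with 20 ng/ml bFGF. The EF group had been stimulated electrically at 150 mV/mm, in daily sessions of 30 min on 3 days, and was collected after another 7 days in culture, and the noEF group had no field. If noEF is ENT, as its labels say, both groups shared cells, gel and medium. Titles of both groups read Day7, and no other time in culture was recorded here for noEF, so equal time in culture is not established. No genotype, strain or animal age is given for either group. Each group has 2 libraries here, while the labels state 3 replicates, and the series design names suspended neural stem cells as its control, so the identity of noEF as unstimulated ENT rests on the sample labels. Bulk RNA cannot tell fewer cells of a type from less RNA per cell.

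Intermediate filaments are rope-like polymers that give cells mechanical strength. Their proteins share a coiled-coil rod and differ in head and tail. Neural stem cells and radial glia build them from vimentin and nestin, and GFAP is added as cells mature into astrocytes. Nestin and synemin do not form filaments on their own and copolymerise with vimentin-type partners. Neurons assemble NEFL, NEFM, NEFH, alpha-internexin (Ina) and, mostly in peripheral and motor neurons, peripherin (Prph) into neurofilaments, which set the calibre of axons.

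The start regions of the 3 most abundant members are shown because their transcripts stood in different proportions in the 2 groups. The windows run from 250 bases before to 50 bases after the RefSeq transcription start on GRCm38.p6, written along the gene's strand, and 6 of the 9 members had one. Capitals mark matches, on either strand, to the letters TTCNNNGAA (STAT), TGANTCA (AP-1), CCAAT and TATAAA, with N for any base, and no 2 matches overlapped.
Gfap, chr11:102897151-102897450, minus strand: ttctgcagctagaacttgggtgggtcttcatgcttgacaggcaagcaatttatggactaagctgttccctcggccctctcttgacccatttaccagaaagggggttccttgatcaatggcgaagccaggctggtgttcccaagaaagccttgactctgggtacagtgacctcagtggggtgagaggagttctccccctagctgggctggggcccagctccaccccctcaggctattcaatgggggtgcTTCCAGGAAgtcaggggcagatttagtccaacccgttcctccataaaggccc
Vim, chr2:13574061-13574360, plus strand: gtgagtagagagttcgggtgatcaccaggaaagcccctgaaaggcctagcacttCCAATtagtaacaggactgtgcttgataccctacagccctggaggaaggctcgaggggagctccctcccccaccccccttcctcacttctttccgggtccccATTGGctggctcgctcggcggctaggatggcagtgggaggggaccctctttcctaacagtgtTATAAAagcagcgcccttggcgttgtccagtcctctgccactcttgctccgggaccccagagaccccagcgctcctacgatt
Nes, chr3:87970843-87971142, plus strand: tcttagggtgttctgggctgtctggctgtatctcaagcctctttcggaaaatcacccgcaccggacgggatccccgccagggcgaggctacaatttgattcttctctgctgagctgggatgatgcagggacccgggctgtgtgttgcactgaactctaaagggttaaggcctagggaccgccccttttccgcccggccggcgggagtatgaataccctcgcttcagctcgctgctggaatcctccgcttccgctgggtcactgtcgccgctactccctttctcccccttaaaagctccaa
The Gfap window held 1 match, TTCCAGGAA of the STAT form, whose first base lies at position -2 from the start. STAT3 is a known activator of Gfap, and 8.30% of 32851 promoter windows of the same length held that form. The Vim window held TATAAA at -32, a form present in 13.6% of windows, and CCAAT letters at -196 and -94, a form present in 37.4%. The Nes window held none of the 4 forms. AP-1 letters stood in 7.81% of all windows and in none of the 6 member windows. Among the windows not printed, Synm had CCAAT letters at -78, Prph had TATAAA at -31, and Ina had no match. The Gfap window also had the fewest CG pairs of the 6, at 3, against 10 in Prph, 11 in Vim, 18 in Nes, 32 in Ina and 33 in Synm, with a median of 7 over all windows. Its GC content was 55.7%, against 59.3% in Vim and 72.7% in Synm, with a median of 52.7% over all windows. Letter matches describe these windows and do not show that a factor binds there.

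Total counts ranged from 33748880 to 34554537 per library, so a count of 0 allows up to 0.0921 CPM (counts per unit of library size, scaled by the TMM method) in noEF 1, the shallowest library. Neural stem cell and radial glia markers were all tested (12 of 12), with summed levels of 5730 to 5786 CPM in EF and 6435 to 6652 CPM in noEF. Most of that sum was Fabp7 and Slc1a3, which went in opposite directions. Fabp7 had 2364 CPM in EF against 3354 CPM in noEF, and Slc1a3 had 2861 CPM in EF against 2560 CPM in noEF. Neuron markers summed to 758 to 778 CPM in EF and 672 to 739 CPM in noEF, most of it Map2. Stmn2, a gene of young neurons, was the only 1 of the 12 with 0 counts in every library. In the same list Dcx was at 14.1 and 15.7 CPM in EF, against 17.6 and 23.4 CPM in noEF. Tubb3 was at 12.3 and 12.5 CPM in EF, against 10.7 and 10.9 CPM in noEF. Of 14263 genes tested with edgeR's quasi-likelihood test, 3.83% were higher in EF and 4.99% lower at a Benjamini-Hochberg adjusted p under 0.05, or 8.82% in all. Of the calls, 43.4% were higher in EF with TMM scaling and 69.3% with library totals. Without EF 1 the counts were 217 higher and 337 lower, against 546 and 712 with all libraries. Nothing in the labels says that replicates came from separate cultures, so errors and p-values here cover the spread between libraries, whose source may be technical.

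Gfap encodes the filament protein of astrocytes (ENSMUSG00000020932, GRCm38 chromosome 11, 102887336 to 102900912, minus strand). It had 8477 and 8411 counts in EF, against 20846 and 22556 counts in noEF. That equals 237 and 241 CPM in EF and 640.3 and 671 CPM in noEF. The EF libraries lay close together and far below both noEF libraries. The mean was 239 ± 2.52 CPM in EF, against 655 ± 21.4 CPM in noEF (SD, n = 2 each). On the log2 scale the difference was -1.45 (SE 0.08), or 2.74-fold lower in EF. Gfap ranked 291st of the tested genes by mean CPM, and of the 2006 tested genes with a mean of at least 100 CPM, 0 had a lower log2 fold change. Among all tested genes 171 had one. Gfap was the member by which the family was chosen, so its rank describes that choice.

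Vim, the vimentin gene (ENSMUSG00000026728, chromosome 2, 13573927 to 13582826, plus strand), was by far the most abundant member. It had 77697 and 79938 counts in EF, against 85124 and 87527 counts in noEF. In CPM it stood at 2176 and 2290.03 in EF and at 2615 and 2602 in noEF, and the groups did not overlap. The log2 fold change was -0.22 (SE 0.08), far smaller than that of Gfap. With library totals in place of TMM it was -0.14 (SE 0.08), still below 0.

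Nes encodes nestin, the filament protein used to mark neural progenitors (ENSMUSG00000004891, chromosome 3, 87971078 to 87980451, plus strand). It had 4834 and 4383 counts in EF, against 3982 and 3857 counts in noEF. These were 135 and 126 CPM in EF and 122 and 115 CPM in noEF. Both EF libraries were above both noEF libraries, but EF 2 exceeded noEF 1 by little. The log2 fold change was 0.14 (SE 0.09), and 0.23 (SE 0.09) with library totals. Gfap, Vim and Nes thus stood at -1.45, -0.22 and 0.14 in the same libraries.

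Synm encodes synemin, a large filament protein that links filaments to cell junctions (ENSMUSG00000030554, chromosome 7, 67730160 to 67759742, minus strand). It had 54 and 131 counts in EF and 49 and 79 counts in noEF, or 1.51 and 3.75 CPM against 1.51 and 2.35 CPM. The EF replicates differed more from each other than the groups did, and the groups overlapped. The log2 fold change was 0.45 (SE 0.48), and it was -0.35 without EF 2. Exons of Synm share 84 bases with Ttc23 on the opposite strand.

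**Figure D1:**
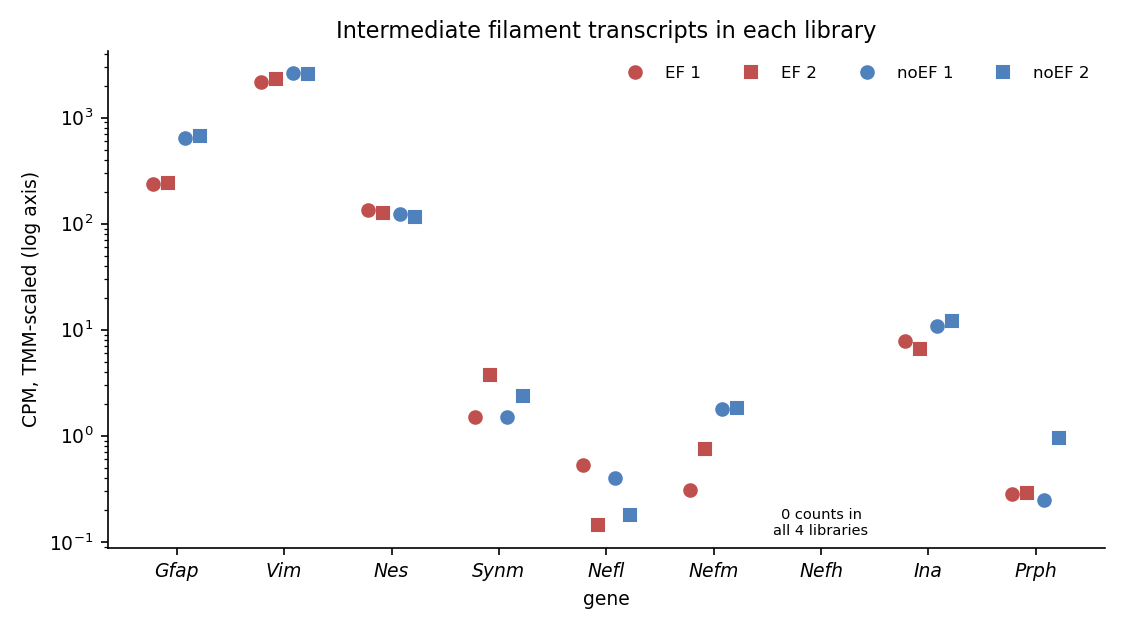
Level of each intermediate filament gene in each library, in TMM-scaled CPM on a log axis, with EF in red, noEF in blue, replicate 1 as circles and replicate 2 as squares. Gfap, Nefm and Ina show both EF libraries below both noEF libraries by a clear step, Vim by a small one, while Synm, Nefl and Prph overlap and Nefh has 0 counts.

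The neurofilament genes were scarce. Ina, which encodes alpha-internexin, the early neurofilament subunit of central neurons (ENSMUSG00000034336, chromosome 19, 47014698 to 47025327, plus strand), was the most abundant of them. It had 280 and 232 counts in EF, against 353 and 406 counts in noEF. In CPM that was 7.84 and 6.65 in EF and 10.8 and 12.1 in noEF, with no overlap between the groups. The log2 fold change was -0.66 (SE 0.20), and it ran from -0.79 to -0.55 when each library was left out. Exons of Ina share 456 bases with Nt5c2 on the opposite strand, which had 24.8 CPM in EF against 23.0 CPM in noEF. Without strand, reads of the shared stretch cannot be assigned.

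Nefm encodes the medium neurofilament subunit (ENSMUSG00000022054, chromosome 14, 68082590 to 68124846, minus strand). It had 11 and 26 counts in EF, against 58 and 62 counts in noEF, or 0.308 and 0.745 CPM against 1.78 and 1.84 CPM. Both EF libraries were below both noEF libraries, which were nearly equal. The log2 fold change was -1.78 (SE 0.65), larger than that of Gfap but with a much wider error, and it was -2.54 without EF 2. Nefl encodes the light subunit, on which the other neurofilament proteins assemble (ENSMUSG00000022055, chromosome 14, 68083863 to 68089095, plus strand). It had 19 and 5 counts in EF and 13 and 6 counts in noEF. The groups overlapped fully, the log2 fold change was 0.23 (SE 1.10), and it was -0.99 without EF 1. Nefm and Nefl are neighbours on opposite strands and their annotated exons share 1108 bases, so with counts this low part of either value may belong to the other.

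Prph encodes peripherin (ENSMUSG00000023484, chromosome 15, 99055174 to 99058978, plus strand). It had 10 and 10 counts in EF and 8 and 32 counts in noEF. Only noEF 2 stood out, and noEF 1 was the lowest of the 4 libraries in counts. The log2 fold change was -1.07 (SE 0.98), and 0.20 without noEF 2. Nefh encodes the heavy subunit of mature, large axons (ENSMUSG00000020396, chromosome 11, 4938754 to 4948064, minus strand). It had 0 counts in all 4 libraries, which allows a level of at most 0.0840 to 0.0859 CPM in an EF library and 0.0892 to 0.0921 CPM in a noEF library, for counting error only. Summed over the 5 neuronal genes there were 320 and 273 counts in EF, against 432 and 506 counts in noEF. Without Ina the sums were 40 and 41 in EF, against 79 and 100 in noEF.

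Of the 9 members, 8 passed the filter on low counts and Nefh did not. Among the 8, 1 passed the edgeR test (Gfap, lower) where 8.82% of all tested genes did, 0 were higher where 3.83% were, and 4 had EF values wholly below noEF values where 26.8% of tested genes had. Nes was the 1 member wholly above, where 27.6% of tested genes were. The median log2 fold change of the 8 was -0.44, against 0.01 over all tested genes. The members were chosen with this contrast known, so nothing is read from these counts.

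**Figure D2:**
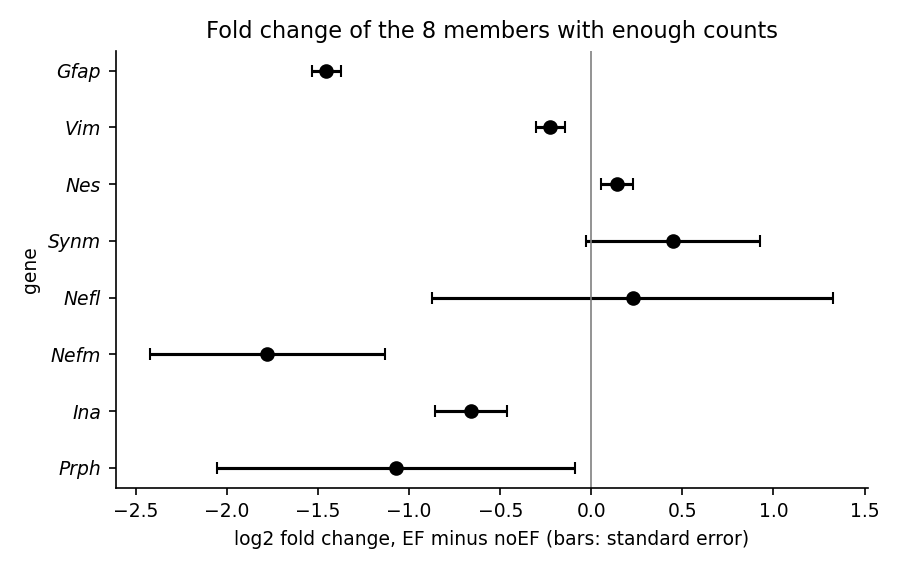
Log2 fold change of EF over noEF for the 8 members with enough counts, as points with standard errors from the edgeR fit. Gfap lies at -1.45 with a short bar, Vim at -0.22 and Nes at 0.14, while Synm, Nefl and Prph have bars as long as their distance from 0 or nearly so.

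Levels of different genes were compared per kilobase of annotated exon, as CPM per kb. Vim was highest, at 471 ± 17.0 in EF and 550 ± 1.90 in noEF, and Gfap was second, at 56.7 ± 0.597 in EF and 155 ± 5.07 in noEF (SD, n = 2 each). Nes was next, at 20.3 ± 1.08 in EF and 18.5 ± 0.844 in noEF, followed by Ina, at 2.24 ± 0.261 in EF and 3.54 ± 0.268 in noEF. Those 4 ranges over the libraries did not overlap each other. Over the 4 libraries Synm spanned 0.190 to 0.473 CPM per kb, above Nefl at 0.0424 to 0.157, while Prph at 0.123 to 0.476 and Nefm at 0.0533 to 0.319 overlapped both of them and each other. Ordered by their means per kilobase of coding sequence instead, the first 5 kept their places, and Nefm and Prph changed places at ranks 6 and 7.

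The make-up of the family differed between the groups in the same way in each library. Gfap was 10.4% and 10.2% of the summed level per kb in EF, against 20.9% and 21.8% in noEF. Vim was 85.1% and 85.9% in EF, against 75.9% and 75.1% in noEF. Nes was 3.91% and 3.48% in EF, against 2.63% and 2.45% in noEF, and the other 6 members together were 0.549% and 0.505% in EF and 0.563% and 0.667% in noEF. There were 8.15 and 8.45 units of Vim per unit of Gfap in EF, against 3.63 and 3.45 in noEF. With coding length the same ratio was 8.46 and 8.77 in EF, against 3.77 and 3.58 in noEF. The summed level per kb was 539 and 562 in EF, against 726 and 730.3 in noEF. These ratios within a library do not depend on how libraries are scaled. They show unequal levels, not which gene differed.

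**Figure D3:**
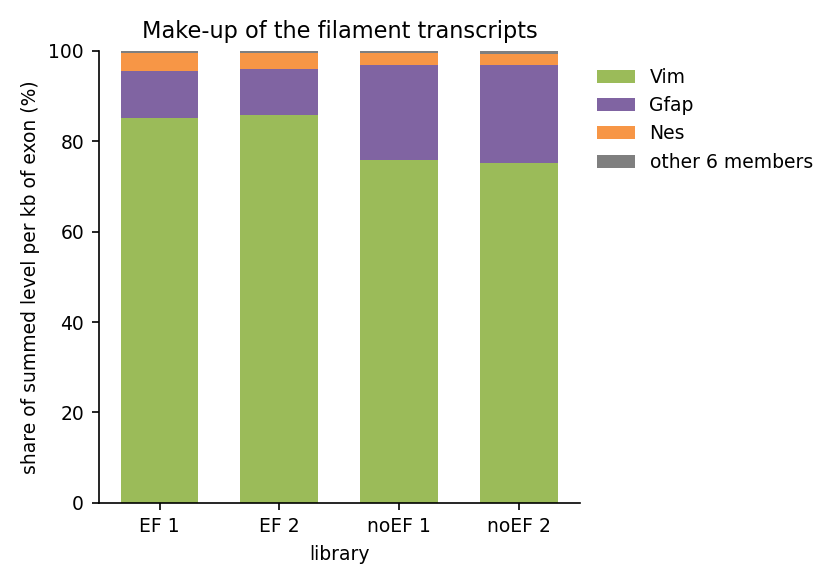
Share of each gene in the summed level of the 9 members per kilobase of exon, as stacked bars for the 4 libraries. Gfap takes 10.4% and 10.2% in the EF libraries and 20.9% and 21.8% in the noEF libraries, with Vim filling most of the difference.

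The genes with the pattern most like Gfap were found by the distance between log2 CPM values, each centred on its mean over the 4 libraries, among 8997 genes with a mean of at least 10 CPM. Naaa, a lysosomal lipid amidase, was nearest at a distance of 0.05 (log2). It was at 11.9 and 11.8 CPM in EF, against 31.0 and 32.4 CPM in noEF. Next came Gpr37l1, a glial orphan receptor, at 0.16, with 35.9 and 38.4 CPM in EF, against 113 and 108 CPM in noEF. Entpd2, an ectonucleotidase, lay at 0.21, Rida, a deaminase, at 0.23 and Cldn10, a claudin, at 0.24. The log2 fold changes of the 5 ran from -1.57 (Gpr37l1) to -1.22 (Cldn10). The same 5 genes came out with library totals, and 4 libraries in 2 groups allow many genes a near-identical pattern.

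**Figure D4:**
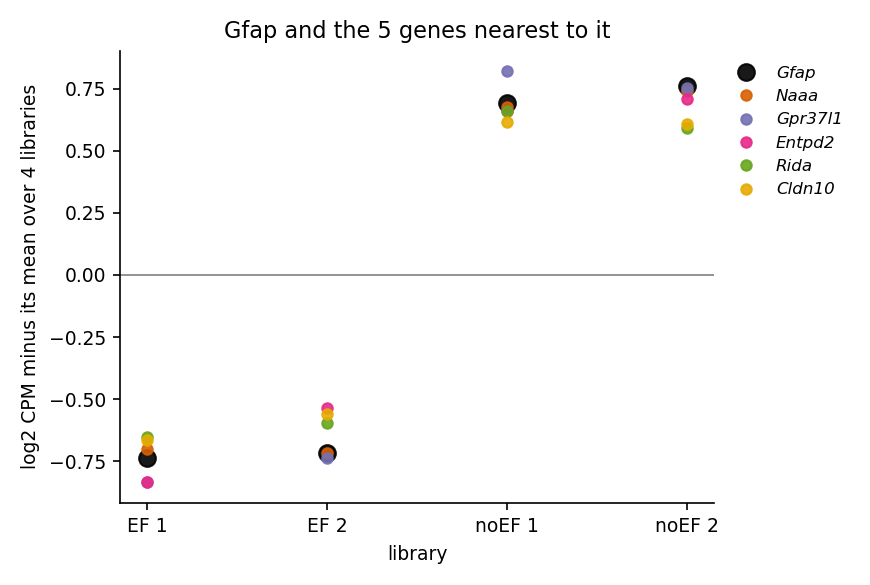
Gfap (large black points) and the 5 genes nearest to it, as log2 CPM minus the gene's mean over the 4 libraries. In all 6 genes the EF libraries lie below 0 and the noEF libraries above it, as the measure of likeness required.

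Partners of the filaments moved in several directions, by counts from the edgeR fit over all genes. In that fit 3.83% of all tested genes were higher in EF and 4.99% lower. Of the 15 chaperones and turnover factors, all tested, 6 were lower, 1 was higher and 8 did not pass, with a list median of -0.28 against 0.01 over all tested genes. Padi2, a peptidylarginine deiminase that citrullinates GFAP and vimentin, fell most. It was at 8.96 and 8.02 CPM in EF, against 28.1 and 29.2 CPM in noEF (log2 fold change -1.75, SE 0.16, edgeR adjusted p = 1.67e-05). The small heat shock genes Hspb8 and Hspb6 fell by 0.61 (SE 0.10) and 0.68 (SE 0.13) (log2), at edgeR adjusted p-values of 0.00209 and 0.00523. Cryab, the alphaB-crystallin gene whose protein binds GFAP filaments, was at 160.0 and 177 CPM in EF, against 242 and 212 CPM in noEF (log2 fold change -0.43, edgeR adjusted p = 0.0102). Casp6, a caspase that cleaves filament proteins, and the calpain gene Capn2 were the other lower members, and the chaperone gene Hsp90aa1 was the higher one. Without EF 1 Cryab, Casp6, Capn2 and Hsp90aa1 lost their calls, with 3 lower members left in the list. Cryab, Hsp90aa1 and Capn2 also lost them without noEF 1, and Capn2 without either other library. Hsp90aa1 and Capn2 lost them with limma-voom and with the replicate block too, and Capn2 with library totals. With the length and GC trend removed Cryab was not called, at a log2 fold change of -0.17. Over the 12 alternatives the adjusted p reached 0.150 for Cryab, 0.122 for Casp6, 0.228 for Capn2 and 0.401 for Hsp90aa1. Exons of Hspb6 overlap Lin37 and Proser3, and those of Cryab overlap Hspb2, all on the opposite strand.

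Of the 15 kinases that phosphorylate filament proteins, 5 were higher, 1 was lower and 9 did not pass (median 0.09). The shares over all tested genes were 3.83% higher and 4.99% lower. Cdk1, which phosphorylates vimentin and nestin in mitosis, was at 138 and 129 CPM in EF, against 89.3 and 74.5 CPM in noEF (log2 fold change 0.71, SE 0.10, edgeR adjusted p = 6.18e-04). Camk2a, a calcium-dependent kinase, was at 13.6 and 11.4 CPM in EF, against 4.61 and 6.78 CPM in noEF (log2 fold change 1.13, SE 0.22, edgeR adjusted p = 0.00572). The mitotic kinase genes Plk1 and Aurkb and the cytoskeletal kinase gene Rock2 were also higher, at 0.51, 0.53 and 0.39, and Prkca was lower at -0.35. Plk1 lost its call without EF 2, Aurkb without EF 1, EF 2 or noEF 1, Rock2 without EF 1 or noEF 1, and Prkca without EF 1, EF 2 or noEF 2. Rock2 also lost it with limma-voom and, at a log2 fold change of 0.24, with the length and GC trend removed, and Prkca with library totals and the replicate block. Over the 12 alternatives their adjusted p reached 0.143, 0.133, 0.209 and 0.129 in that order. Cdk1, Plk1 and Aurkb serve cell division. Of 8 markers of dividing cells 7 were higher and 0 lower, with Cdk1 itself counted among the 7. The sum of the 8, Cdk1 included, was 1071 to 1144 CPM in EF and 691 to 698 CPM in noEF. Their part in the kinase values was not tested.

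Nuclear lamins are the filament family members that line the inside of the nucleus. Of 14 tested lamin and nuclear membrane genes 4 were higher, 0 were lower and 10 did not pass (median 0.11). Among all tested genes 3.83% were higher and 4.99% lower. Of the lamin genes other than Lmnb1, Lmna was at -0.13 and Lmnb2 at 0.39, and neither was called. Tmpo, a lamin-binding membrane protein, was at 179 and 176 CPM in EF, against 122 and 121 CPM in noEF (log2 fold change 0.55, SE 0.08, edgeR adjusted p = 0.00106). Lmnb1, the lamin B1 gene, was higher by 0.48 (SE 0.10, edgeR adjusted p = 0.0102) and Lbr, the lamin B receptor gene, by 0.57 (SE 0.13, edgeR adjusted p = 0.0117), and Sun1 was the remaining call. Lmnb1 and Sun1 lost their calls without EF 1, and Lbr and Sun1 without EF 2, which left 2 higher genes in the list either time, and Sun1 lost its call without noEF 2 and with the replicate block. Their adjusted p over the 12 alternatives reached 0.0639 (Lmnb1), 0.0751 (Lbr) and 0.191 (Sun1). Of 16 other cytoplasmic filament genes, 7 had 0 counts in every library and 6 were tested, with 0 called in either direction. The most abundant were Iffo1, with 34.0 CPM in EF against 28.7 CPM in noEF, and Iffo2, with 14.3 CPM in EF against 18.3 CPM in noEF. None of the 10 tested cytolinker genes passed (median 0.12). Among them Macf1, a giant linker of actin and microtubules, had 206 ± 1.96 CPM in EF, against 204 ± 15.3 CPM in noEF (SD, n = 2 each), and the dystrophin gene Dmd had 120.3 CPM in EF, against 104 CPM in noEF. Dmd was called higher with library totals (log2 fold change 0.29, edgeR adjusted p = 0.0493). Beside 8.82% of all tested genes, 1 of 14 axonal transport and neurofilament mRNA binding genes passed (list median 0.17). This was Mapt, the tau gene, at 95.1 and 99.1 CPM in EF, against 130 and 127 CPM in noEF (log2 fold change -0.40, SE 0.09, edgeR adjusted p = 0.00976), a call lost without EF 1 (edgeR adjusted p = 0.0756).

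Transcription factors listed for Gfap were counted in the same fit, where 3.83% of all tested genes were higher and 4.99% lower. Of 16 activators, 2 were lower, 0 were higher and 14 did not pass (median 0.01). Sox9, a glial fate factor, was at 154 and 162 CPM in EF, against 210 and 217 CPM in noEF (log2 fold change -0.43, SE 0.08, edgeR adjusted p = 0.00521). Zbtb20, an astrocyte zinc finger factor, was at 43.0 and 50.1 CPM in EF, against 62.0 and 66.4 CPM in noEF (log2 fold change -0.46, SE 0.11, edgeR adjusted p = 0.0179). Without EF 1 both missed the threshold, with edgeR adjusted p-values of 0.0504 for Sox9 and 0.209 for Zbtb20. Stat3, named for the letters shown above after its value was seen, had 257 CPM in EF, against 269 CPM in noEF (log2 fold change -0.06, SE 0.08, edgeR adjusted p = 0.696). Of 11 tested repressors 1 was higher, 0 were lower and 10 did not pass (median 0.12). Dnmt1, the methyltransferase that copies CpG methylation at replication, was at 91.8 and 88.1 CPM in EF, against 62.3 and 55.0 CPM in noEF (log2 fold change 0.62, SE 0.10, edgeR adjusted p = 0.00166). It is also a gene of replicating cells, whose markers were higher as given above. The part of such cells in the Dnmt1 value was not tested. With library totals 4 repressors were higher. Of 13 tested regulators of Nes and Vim 1 was higher and 1 lower (median 0.12). Zeb1 was higher by 0.33 (SE 0.08, edgeR adjusted p = 0.0260) and Sox1 was lower, at -0.46 (SE 0.12, edgeR adjusted p = 0.0287), and both lost their calls without EF 1, without EF 2, without noEF 1 and with the replicate block. Sox1 was also not called with library totals, and Zeb1, at a log2 fold change of 0.19, with the length and GC trend removed. Over the 12 alternatives their adjusted p reached 0.159 for Zeb1 and 0.198 for Sox1.

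**Figure D5:**
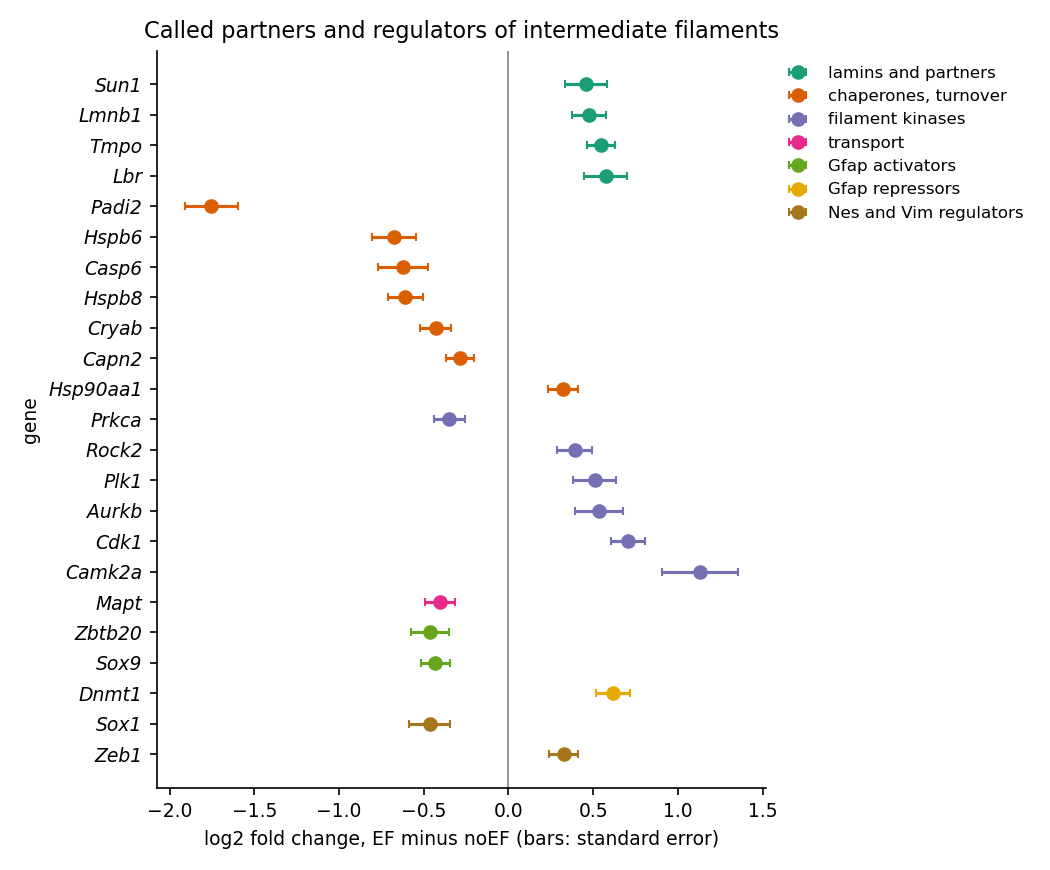
Log2 fold change of EF over noEF, with standard errors, for the 23 called genes among the lamins, filament partners and regulators, coloured by list. Padi2 lies lowest at -1.75 and Camk2a highest at 1.13. The 4 called genes of the list of lamins and their membrane partners lie above 0. Most of the called chaperone and turnover genes lie below it. Genes not called, such as Lmna, are not shown.

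Markers of the cells that could carry these filaments were counted in the same fit, where 3.83% of all tested genes were higher and 4.99% lower. Of 12 astrocyte markers 4 were lower, 0 were higher and 8 did not pass (median -0.07). Gja1, a gap junction gene, had 408 ± 3.64 CPM in EF, against 625 ± 28.4 CPM in noEF, and Aldoc, a glycolytic enzyme gene, had 844 ± 28.6 CPM in EF, against 1230.02 ± 60.0 CPM in noEF (SD, n = 2 each). Their log2 fold changes were -0.62 and -0.54, with edgeR adjusted p-values of 2.78e-04 and 7.71e-04. Aqp4, the water channel of astrocyte endfeet, was lower too, at -0.52 (edgeR adjusted p = 0.00405), as was Sox9. The 8 that did not pass lay on both sides of 0. Slc1a3, the most abundant marker, had 2861 CPM in EF, against 2560 CPM in noEF (log2 fold change 0.16). Acsbg1, Glul and Aldh1l1 were at 0.17, 0.06 and 0.03. Below 0 were Gjb6, Slc1a2, Fgfr3 and S100b, at -0.35, -0.08, -0.05 and -0.02. Of 12 neural stem cell and radial glia markers 4 were lower, 0 were higher and 8 did not pass (median -0.32). Fabp7, a lipid carrier of radial glia, Id4 and Hopx fell by 0.50, 0.90 and 0.73 (log2), at edgeR adjusted p-values of 0.00195, 0.00582 and 0.00819, and the remaining one was Sox1. Slc1a3 is in this list too, and Nr2e1, Pax6 and Msi1 also lay above 0, at 0.14, 0.12 and 0.01. Prom1, Hes5, Sox2 and Hes1 lay below 0, at -0.40, -0.37, -0.27 and -0.17, and were not called. With the length and GC trend removed Fabp7 was still called lower, at -0.24 (edgeR adjusted p = 0.0286). Hopx lost its call without noEF 1 (edgeR adjusted p = 0.0716).

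Of 11 tested neuron markers 0 passed (median -0.18). Below 0 were Snap25, Syt1, Dcx, Syp, Syn1 and Rbfox3, at -0.53, -0.48, -0.46, -0.38, -0.19 and -0.18. Above 0 were Elavl4, Map2, Tubb3, Elavl3 and Gap43, at 0.34, 0.20, 0.19, 0.14 and 0.09. The most abundant were Map2, with 513 CPM in EF against 446 CPM in noEF, and Gap43, with 136 CPM in EF against 128 CPM in noEF. Map2 was called higher without noEF 2 (log2 fold change 0.32, edgeR adjusted p = 0.0402), against 0.20 with all libraries, and Gap43 with the length and GC trend removed (0.34, edgeR adjusted p = 0.00942), against 0.09 without that correction. Markers of the neurons that use Prph were nearly absent, with 9 of 11 at 0 counts in every library and Avil the most abundant with 0.921 CPM in EF against 1.55 CPM in noEF. Markers of other cell types were also counted, beside 3.83% of all tested genes higher and 4.99% lower. Fibroblast and mural markers summed to 7.53 to 11.4 CPM in EF and 5.14 to 5.59 CPM in noEF, with 1 of 5 tested genes higher, the smooth muscle actin gene Acta2 (log2 fold change 1.17, edgeR adjusted p = 0.0309), a call lost with limma-voom and, at a log2 fold change of 0.69, without EF 1 (adjusted p up to 0.435 over the 12 alternatives). Endothelial markers summed to 1.75 to 2.49 CPM in EF and 0.743 to 1.29 CPM in noEF, and of 2 tested 0 passed, with Kdr and Pecam1 the most abundant. Microglia and macrophage markers summed to 0.224 to 0.430 CPM in EF and 0.276 to 1.16 CPM in noEF, with 6 of 8 at 0 counts and the 1 tested, P2ry12, not called. Schwann cell and neural crest markers, Pmp22 among them, summed to 116 to 123 CPM in EF and 109 to 113 CPM in noEF, with 0 calls among 4 tested. Pmp22 was called higher with library totals and with the length and GC trend removed (log2 fold changes of 0.35 and 0.35, edgeR adjusted p = 0.0247 and 0.0136). Ependymal markers, led by Foxj1 and Rsph1, summed to 26.7 to 32.2 CPM in EF and 34.7 to 37.0 CPM in noEF, with 0 calls among 4 tested. Of 9 tested oligodendrocyte lineage markers 0 were higher and 2 were lower, Pdgfra at -0.52 and Gpr17 at -0.89 (edgeR adjusted p = 0.0396 and 0.0164), neither called without noEF 2, where Pdgfra was at -0.34. Pdgfra was also not called without EF 1, with limma-voom or with library totals, and Gpr17 without EF 2, and their adjusted p reached 0.258 and 0.101 over the 12 alternatives. The part of these cells in the filament values was not tested.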

How the data were processed

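Polyadenylated RNA was selected on oligo(dT) beads, per the labels' protocols, then fragmented, primed with random hexamers and amplified after adapter ligation, with no step described that keeps the strand. The deposited table holds raw counts per gene, 1 column per library, matched to samples by library name. The submitters' processing notes name HISAT2 2.0.4, StringTie 2.2.1, DESeq2 1.44.0 and GRCm38 without roles, and how reads were counted (annotation, strand) is not given in the sources used here. Rows are 22036 genes with an Ensembl ID and 1838 models without one. In every library fewer genes had a count of 1 than a count of 2, so reads of a pair may have been counted singly, which makes the true counting error larger.

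Counts were tested with edgeR 4.0.16 in R 4.3.3: filterByExpr (minimum count 10, minimum total 15), TMM, robust quasi-likelihood F test, and Benjamini-Hochberg adjustment over 14263 genes, called at 0.05. The biological coefficient of variation was 0.161. CPM use TMM-scaled totals, log2 fold changes are EF minus noEF, and a standard error is the fold change over the square root of F. A chi-square test of counts between replicates exceeded its degrees of freedom 19.3-fold in EF and 20.0-fold in noEF, so replicates were separate libraries. Exon lengths, coordinates and overlaps (bedtools 2.31.1) came from GENCODE M21, which held 22022 of the IDs, and promoters from RefSeq.

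The members and the 20 related lists (235 entries, 225 genes, all in the table) were chosen with earlier results of these data known. Named genes are the members, the 3 called genes with the smallest p in each list (the 2 most abundant where 0 were called), and the 5 nearest to Gfap. A gene under this rule is not reported here. Other called list genes, Stat3, Stmn2 and further list genes that were not called were named after their values were seen. Alternatives were RLE scaling, library totals, no filter, a filter of 1 CPM in 2 or more libraries, limma-voom (limma 3.58.1), DESeq2 1.42.0, a replicate block, a loess correction for length and GC, each library left out, coding length, and library totals for the likeness to Gfap.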

Additional observations from a re-analysis of the deposited data

How the results depend on the processing

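Gfap kept its direction under all 12 alternatives, with log2 fold changes of -1.49 to -1.42 without 1 library and -1.37 with library totals, the largest move. Library totals also put Vim at -0.14 and Nes at 0.23, and removing the length and GC trend put Vim at -0.29 (length and GC were known for 94.2% of tested genes). The scarce members depended on single libraries: the log2 fold change without 1 library ran from -0.35 to 0.96 for Synm, from -0.99 to 0.91 for Nefl, from -2.54 to -1.28 for Nefm and from -1.73 to 0.20 for Prph. Genes higher in EF numbered 1138 with library totals and 915 with no filter, and genes lower in EF 1203 with no filter. Without 1 library they ranged from 217 to 790 higher and from 337 to 1065 lower, the lowest without EF 1. The cause was not tested. Of the 38 list genes called, 17 kept their call under all 12 alternatives. Replicate numbers are shared between groups in the titles, but the library names are E1 and E3 in EF and noEF1 and noEF2 in noEF. EF 2 is thus library E3, whose number differs from that of noEF 2. Deviations of libraries with the same number in the titles correlated at -0.09, so the numbers were not taken as pairs. With the replicate block, which follows the titles, 410 genes were higher and 568 lower. With 2 libraries a group, an exact permutation test of a single gene cannot go below p = 0.333.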
